A study of Arabidopsis thaliana with 12 samples.

Results

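Rosette axillary buds at 2 positions, bud n-2 and bud n, were compared in plants kept under high R:FR, a high ratio of red light to far-red light, the light of an unshaded place. The comparison takes 6 of the 12 arrays of the series, chosen by their labels alone, with 3 arrays of bud n-2 and 3 of bud n. Bud n is the uppermost bud of the rosette and bud n-2 a lower one. The other 6 arrays, 3 of bud n-2 and 3 of bud n, come from plants under low R:FR, the light signal of neighbouring plants. They share the estimate of the spread and enter the last comparison. All plants were of accession Col-8 in the Col-0 background, at growth stage 6.00, when the first flower opens, and no mutation, transgene or hormone treatment is given. Both lights were kept in a split chamber with a common temperature and photon flux. Total RNA was labelled with biotin and hybridised to Affymetrix ATH1 arrays, on which each gene is measured by a set of short probes. The labels do not say how many plants were pooled for an array, nor whether replicates came from separate batches. The p-values therefore speak only of the spread among arrays of a group, and the number of arrays limits the precision.

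An axillary bud is a small shoot, a meristem with leaf primordia, in the axil of a leaf. It can rest for a time and then grow out into a branch. Buds that grow divide their cells and build ribosomes and walls. Resting buds are known for low expression of cell cycle genes, for genes linked to abscisic acid (ABA), the hormone of drought and seed dormancy, and for genes of carbon shortage. Auxin from the shoot above holds buds back, cytokinin and sugar favour outgrowth, and upper rosette buds of Arabidopsis often grow out before lower ones.

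Values are the deposited signals on a linear scale, which can be compared between arrays for a gene but not between genes. Differences are bud n-2 minus bud n on the log2 scale, with the standard error from limma (n = 3 arrays a group), and a gene passed at a limma p under 0.05 after Benjamini-Hochberg adjustment over 14295 tested probe sets. A probe set was dim in a group when it lay at or below the 40th percentile of the array on all 3 arrays, 22.1 to 22.7 in bud n-2 and 18.4 to 19.1 in bud n. The fold of such a gene is given as a lower bound, with dim values raised to that percentile. That level lies higher in bud n-2, so a gene at it in both positions would get a small bound as higher in bud n-2. Small bounds of genes dim in bud n are to be read against this offset. For a gene dim in bud n-2, raising moves the difference towards bud n-2 and can set its sign. A gene dim on only some arrays of a group keeps its fitted fold, which is then not exact. Median signals were 42.4 to 44.0 in bud n-2 and 38 to 38.8 in bud n, so the scaling of the arrays moves every difference. Of the differences that passed, 58.6% were positive on the deposited values, against 49.3% after quantile normalization, 45.0% after centring on the median of tested probe sets and 30.1% after centring on the median of all. That last setting shifted the median of all tested probe sets to -0.13, against 0.04 as deposited.

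The names known here cover only part of each list, and the tissue check is limited by this. Of 24 meristem markers 4 had a named probe set. CLV3, the stem cell peptide, and LAS, a factor of axillary meristem formation, were dim on all 6 arrays, and the leaf polarity genes YAB3 and PHV were lower in bud n-2, as given below. The summed signal of these 4 was 283 to 391 in bud n-2 and 420 to 488 in bud n. Of 14 floral markers only UFO was named, at 13.2 to 15.3 in bud n-2 and 13.2 to 24.0 in bud n. Root markers EXPA7 and EXPA18, 2 of 16, were dim on all 6 arrays. RCA, 1 of 13 mesophyll markers, lay at 2969 to 3667 in bud n-2 and 2874 to 3373 in bud n and did not pass. Of 26 anther markers 3 were named, with a summed signal of 106 to 152 in bud n-2 and 111 to 128 in bud n. OLEO3, 1 of 27 seed markers, lay at 24.6 to 34.4 in bud n-2 and 34.9 to 37.6 in bud n, and no vascular or trichome marker was named. In buds taken whole, fewer cells of a type and less RNA per cell cannot be told apart, here or below. Of the genes of bud rest and growth to be followed, BRC1, BRC2, DRM1, DYL1, HB21, HB40, HB53, NCED3, PCNA1, PCNA2, CYCB1;1, CYCD3;1 and STM had no named probe set and are not analysed here.

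Position separated the buds widely. Of 14295 tested probe sets 4934 passed, 34.5%, with 2890 higher in bud n-2 (20.2%) and 2044 lower (14.3%). The 6 arrays did not overlap between the positions for 6429 probe sets, 45.0%, of which 4699 were among those that passed. Most differences were small. Among probe sets dim in neither group, 377 were at least 2-fold higher in bud n-2 and 182 at least 2-fold lower, 35 and 9 at least 4-fold, and 9 and 1 at least 8-fold. Another 270 higher probe sets were dim throughout bud n, 69 of them with a bound of at least 2-fold, and 79 lower ones were dim throughout bud n-2, 13 with such a bound. Among the 7766 named genes tested, 2552 passed (32.9%), with 1567 higher (20.2%) and 985 lower (12.7%), and their median difference was 0.05. Counts for gene groups below are to be read against these shares. A gene given with its own fold, bound or standard error as higher or lower passed with each of the 6 arrays left out in turn, unless a smaller number of 6 is given.

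**Figure D1:**
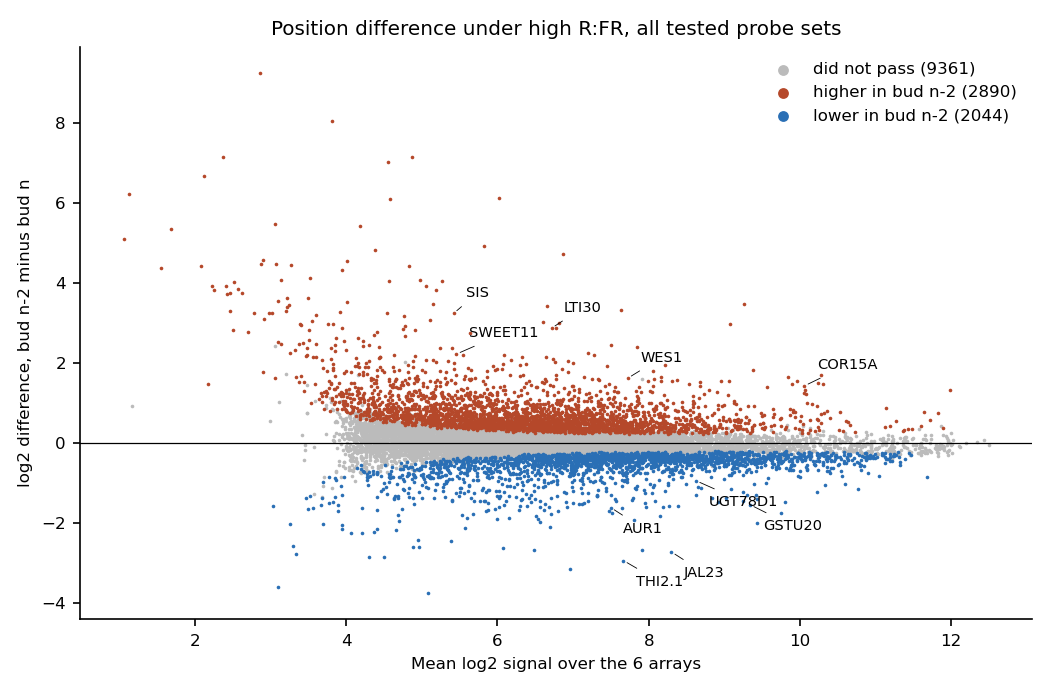
Each point is a tested probe set, with the mean log2 signal of the 6 arrays on the x axis and the log2 difference of bud n-2 minus bud n on the y axis. Red points passed as higher in bud n-2 (2890), blue points as lower (2044) and grey points did not pass. The most positive values stand at low mean signal, where probe sets were dim throughout bud n.

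Cell division genes had lower signals in bud n-2. Of 23 tested genes of mitosis and cytokinesis, 12 were lower and 2 higher, with a median difference of -0.46. AUR1, an Aurora kinase of the spindle and the forming cell plate, had signals of 97.1, 102 and 111 in bud n-2, against 345, 278 and 332 in bud n. Every bud n-2 array lay below every bud n array, and the signal was 3.07-fold lower (-1.62 ± 0.10, limma adjusted p = 8.04e-09). Its close relative AUR2 had 81.9, 88.9 and 95.9 in bud n-2, against 245, 235 and 249 in bud n, again with no overlap (-1.45 ± 0.11, limma adjusted p = 4.11e-08). BUBR1, of the spindle checkpoint, had 19, 30.8 and 28.2 in bud n-2, against 76.2, 56.7 and 79 in bud n. KINESIN-12B, a motor of the phragmoplast that builds the new wall between daughter cells, had 36.3, 39.5 and 45.1 in bud n-2, against 112, 122 and 84.4 in bud n. These were 2.74-fold and 2.62-fold lower, and neither overlapped between positions. 3xHMG-box2, which binds mitotic chromosomes, was 1.75-fold lower, with 393, 529.7 and 467 in bud n-2, against 806, 781 and 833 in bud n (-0.81 ± 0.10, limma adjusted p = 8.53e-06). The 7 other lower genes, among them AUR3, the centromeric histone HTR12 and Haspin, a kinase of histone H3, had differences of -0.46 to -0.61. Of the 2 higher genes, SKP2A, an F-box protein that marks cell cycle repressors for breakdown, had 184, 163 and 193 in bud n-2, against 106, 118 and 122 in bud n (0.64 ± 0.11, limma adjusted p = 2.08e-04), and ATZW10 had a difference of 0.37 and passed with 2 of 6 arrays left out. The other 9 genes lay between -0.36 and 0.21 and did not pass.

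Genes of DNA synthesis followed the same direction with smaller differences. Of 7 tested replication genes 3 were lower and none higher, with a median of -0.27. TOPII, the topoisomerase that untangles DNA, had 279.8, 214 and 269.8 in bud n-2, against 485, 544 and 524 in bud n, so its signal was 2.05-fold lower with no overlap (-1.03 ± 0.11, limma adjusted p = 2.88e-06). PRL, the MCM7 subunit of the replicative helicase, had 369.9, 322 and 319 in bud n-2, against 545, 428 and 444 in bud n (-0.48 ± 0.10). ICU2, the catalytic subunit of DNA polymerase alpha, had a difference of -0.49 ± 0.18 and passed with 3 of 6 arrays left out. Its arrays overlapped. Of 4 tested histone H2B genes 2 were lower. HTB11 had 582, 576 and 569 in bud n-2, against 751, 818 and 822 in bud n (-0.47 ± 0.08, limma adjusted p = 3.24e-04), while the call on HTB4 (-0.29 ± 0.10) was lost with any of the 6 arrays left out.

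Genes that make ribosomes mostly did not pass. Of 15 tested genes of ribosome biogenesis 3 were higher, none was lower and 12 did not pass, with a median of -0.11. The share higher, 20%, was near the 20.2% of all named genes, whose median difference was 0.05. PRH75, a nucleolar RNA helicase, had 728, 691 and 682 in bud n-2, against 543, 460.2 and 417 in bud n, with no overlap (0.57 ± 0.10, limma adjusted p = 4.24e-04). The NOTCHLESS gene AT5G52820, which in yeast acts on the large ribosomal subunit, had a difference of 0.44 ± 0.09, and the rRNA methyltransferase DIM1A 0.31 ± 0.10, which passed with 2 of 6 arrays left out. After median centring 6 of the 15 were lower, and after quantile normalization 2.

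**Figure D2:**
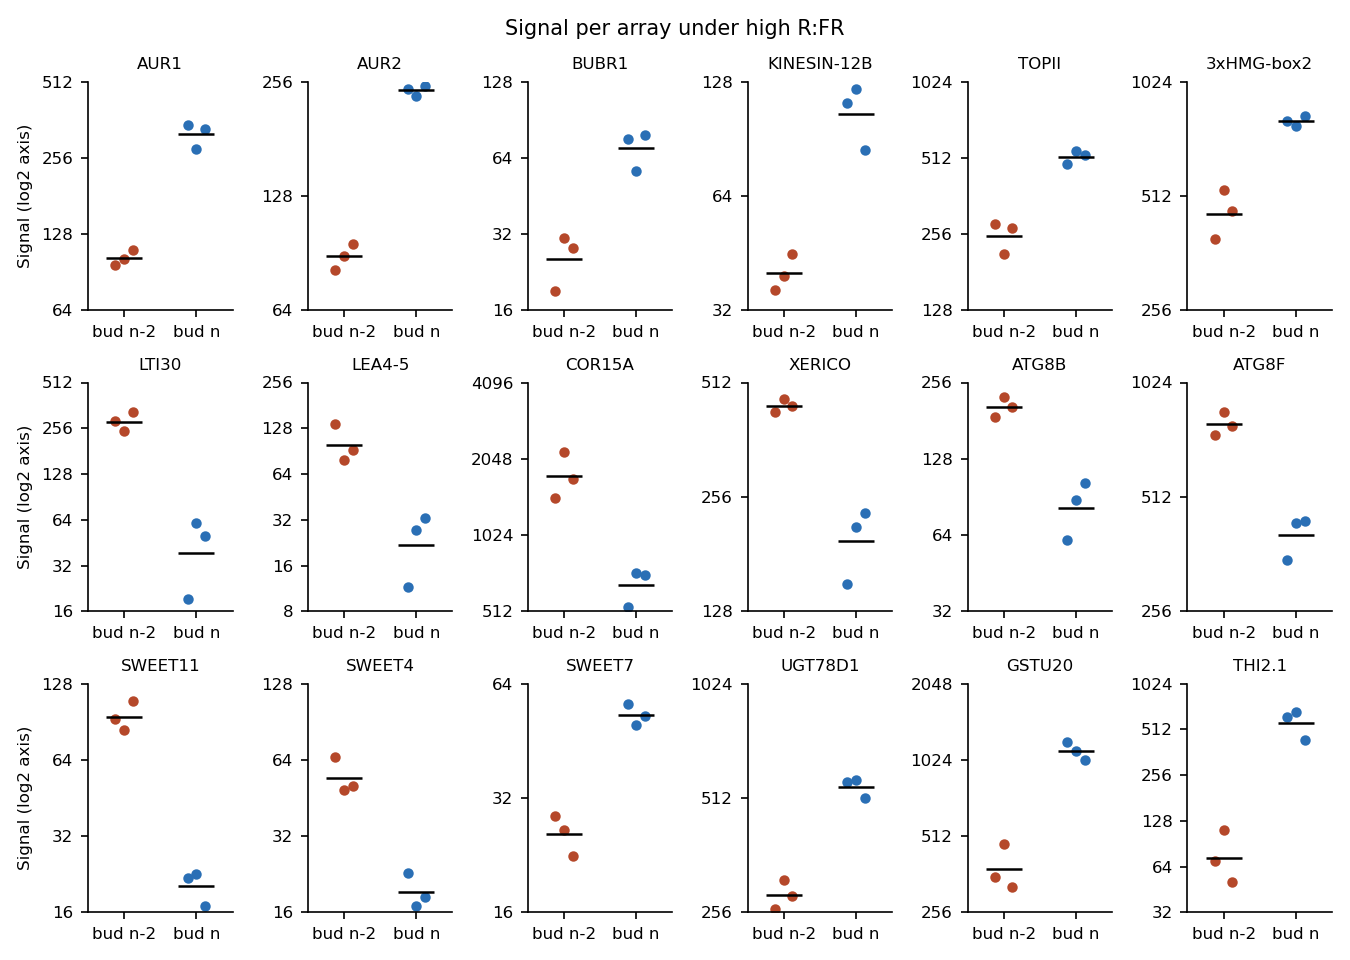
Signal of 18 genes on each array under high R:FR, on log2 axes, with bud n-2 left and bud n right in every panel. Dots are arrays (3 a group) and bars their geometric means. The first 6 genes, of cell division, lie lower in bud n-2 on every array, the next 6, linked to ABA and autophagy, lie higher, and the last 6 show SWEET11 and SWEET4 higher and SWEET7, UGT78D1, GSTU20 and THI2.1 lower.

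Lists of cell wall genes held 11 calls of lower and 2 of higher signal in bud n-2, while their shares of called members, 15.4% to 35.3%, were near or below the 32.9% of all named genes. Of 6 tested GH9 endo-glucanases, which trim glucan chains, 2 were lower and none higher, with a median of -0.43. GH9B13 had 529, 438 and 491 in bud n-2, against 808, 794 and 819 in bud n (-0.74 ± 0.09, limma adjusted p = 1.34e-05), and GH9B7 had 417, 411 and 418 in bud n-2, against 589, 575 and 570.4 in bud n (-0.48 ± 0.08). Neither overlapped. Of 13 tested cellulose synthase-like and xylan genes, CSLA01, a mannan synthase, had 128, 128 and 89.8 in bud n-2, against 243, 231 and 327 in bud n, 2.32-fold lower, and CSLC5, of the family that makes the xyloglucan backbone, was lower by 1.51-fold. The other 11 did not pass. XTH16, a xyloglucan transferase, was the only one of 3 tested to pass (-0.65 ± 0.15). Among 17 tested trichome birefringence-like genes, of a family that acetylates wall polysaccharides, 5 were lower and 1 higher, with a median of -0.20. TBL26 (-0.74 ± 0.17), TBL36 (-0.65 ± 0.14) and the founding member AT5G06700 (-0.46 ± 0.11) were lower. TBL43 and TBL41 were lower but dim in bud n-2 and did not pass with dim values raised, and without replicate 1 of bud n only 3 of the list were lower. Expansins, which loosen walls, showed no common direction. EXPB3 was lower (-0.40 ± 0.09), EXPA8 higher (0.62 ± 0.19, 4 of 6), and 5 of 7 did not pass.

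Of 6 tested RALF-like peptide genes, of a family that acts on cell expansion, 3 were lower and 1 higher in bud n-2. The lower ones were RALFL34 (-0.43 ± 0.09), RALFL32 (-0.44 ± 0.11) and RALFL31 (-0.40 ± 0.11, 4 of 6). RALFL18 was dim in bud n and higher by at least 1.28-fold. Of 6 tested subtilases, a family of proteases, 2 were lower and 1 higher, with a median of 0.06 that became -0.11 after median centring. SBTI1.1, which cleaves the precursor of the growth peptide phytosulfokine, had 34.2, 26.5 and 37.1 in bud n-2, against 80.8, 77.9 and 64.9 in bud n, 2.3-fold lower with no overlap. SBT1.3 was lower (-0.27, 1 of 6) and SBT3.12 higher (0.47, 3 of 6). Among tubulins and actins the direction differed by gene. TUB7 had 591, 565 and 522 in bud n-2, against 967, 794 and 809 in bud n (-0.61 ± 0.09), and ACT11 was lower by 1.44-fold. TUB5 went the other way, with 652, 662 and 678 in bud n-2, against 482, 492 and 510.2 in bud n (0.42 ± 0.08, limma adjusted p = 9.11e-04). The other 6 of 9 did not pass.

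Genes of desiccation and ABA were higher in bud n-2. Of 9 tested LEA and dehydrin genes, whose proteins protect membranes and enzymes in drying cells, 7 were higher and 1 lower, with a median of 1.05, or 0.66 with dim values raised. The dehydrin LTI30 had signals of 284, 247 and 326 in bud n-2, against 19.3, 60.6 and 50.3 in bud n. The bud n-2 arrays stood far above all bud n arrays, 7.29-fold in the mean (2.87 ± 0.31, limma adjusted p = 2.65e-06). LEA4-5 had 137, 79 and 91.9 in bud n-2, against 11.6, 27.3 and 32.8 in bud n, 4.58-fold higher. COR15A, a chloroplast LEA protein of cold and drought, had 1431, 2178 and 1712 in bud n-2, against 534, 727 and 710.1 in bud n (1.42 ± 0.17), and its neighbour in name COR15B had 482, 629 and 557 in bud n-2, against 190.4, 358 and 277 in bud n (1.05 ± 0.16). None of these overlapped. COR47 and the dehydrin AT1G54410 were higher by smaller amounts, 0.66 and 0.43. LEA18 was dim in bud n, with a bound of 1.21-fold, and did not pass with dim values raised. The LEA gene AT2G46140 was lower, with 54.7, 66 and 64.3 in bud n-2, against 110.3, 94.6 and 101 in bud n (-0.73 ± 0.11, limma adjusted p = 8.33e-05).

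Among 10 further tested genes linked to ABA, 8 were higher and none lower, with a median of 0.84, or 0.59 with dim values raised. HIS1-3, a linker histone of drought stress, had 225, 298 and 286 in bud n-2, against 0.69, 10.4 and 1.2 in bud n. All bud n arrays were dim, so the signal was at least 14.4-fold higher (limma adjusted p = 6.11e-06). XERICO, a RING protein that raises ABA levels, had 429, 464 and 443 in bud n-2, against 151, 213 and 233 in bud n, 2.27-fold higher (1.18 ± 0.13, limma adjusted p = 3.58e-06). DI19, a zinc finger protein induced by drought, had 1892, 1795 and 1308 in bud n-2, against 1004, 917 and 1035 in bud n (0.74 ± 0.12). EEL, a bZIP factor of late seed development, had 30.2, 34.3 and 31.1 in bud n-2, against 11.3, 24.9 and 16.2 in bud n (0.94 ± 0.24). No bud n array reached the lowest bud n-2 array for any of the 4. ALDH7B4, a turgor-responsive aldehyde dehydrogenase, was 1.28-fold higher, and UGT71C5, which conjugates ABA to glucose, 1.49-fold. PUB19, a ubiquitin ligase that dampens ABA responses, and the zinc finger repressor STZ were dim in bud n, with bounds of 1.35-fold and 1.21-fold. DI21, induced by drought, did not pass, with 341, 489 and 377 in bud n-2, against 420.2, 422 and 408 in bud n. With the filter at the 60th percentile, which tests fewer genes, 4 of this group were higher.

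The tested genes of autophagy, the delivery of cell contents to the vacuole for breakdown, were higher almost throughout. Only 11 of the 44 genes of this list were named. Apart from ATG3 and AT5G66930 they all belong to the ATG8 family, so the count speaks mainly for that family. Of 11 tested, 10 were higher and none lower, with a median of 0.55. ATG8 proteins are the ubiquitin-like tags of the growing autophagosome membrane. ATG8B had 187, 225 and 205 in bud n-2, against 61, 87.9 and 102 in bud n, 2.51-fold higher (1.33 ± 0.14, limma adjusted p = 2.75e-06). ATG8F had 745, 857 and 789 in bud n-2, against 349, 437 and 442 in bud n, 1.95-fold higher, and ATG8E had 169, 244 and 148 in bud n-2, against 81.2, 105 and 95.4 in bud n, 1.96-fold. The positions did not overlap for any of the 3. ATG8D (0.55 ± 0.11) and ATG8C (0.52 ± 0.11) were also higher, as was AT5G66930, the ATG101 subunit of the kinase complex that starts autophagy (0.74 ± 0.14). ATG3, the enzyme that joins ATG8 to its lipid, was higher by 1.24-fold and passed with 2 of 6 arrays left out. The gene that did not pass was ATG8H, at 0.47.

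SnRK1 is the kinase of low energy, and its regulatory subunits differed from each other. AKINBETA1 had 271, 242 and 233 in bud n-2, against 142, 152 and 137 in bud n, so every bud n-2 array lay above every bud n array (0.79 ± 0.09, limma adjusted p = 6.52e-06). The beta subunits AT4G16360 (-0.08 ± 0.10) and AT2G28060 (-0.15 ± 0.10) did not pass. Of 18 tested genes of amino acid and reserve breakdown 5 were higher and 1 lower, with a median of 0.16 that became -0.01 after median centring, where 2 were higher. MGL, which breaks down methionine, had 68.5, 61.3 and 79 in bud n-2, against 29.9, 30 and 25.1 in bud n, 2.45-fold higher with no overlap (1.29 ± 0.19, limma adjusted p = 4.81e-05). The asparaginase ASPGA1 (0.38 ± 0.09) and ETFALPHA, which takes electrons from branched-chain amino acid breakdown (0.33 ± 0.09), were higher. PPDK, which turns pyruvate back into phosphoenolpyruvate, was dim in bud n and at least 1.31-fold higher. The lysine-degrading enzyme AT4G33150 was higher in 2 of 6 fits with an array left out (0.40 ± 0.14), and the other asparaginase, ASPGB1, was lower in 3 of 6 (-0.40 ± 0.14).

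Sugar transporters of the SWEET family, which let sugars cross membranes down their gradient, went in both directions. Of 12 tested, 4 were higher and 2 lower. SWEET11, which exports sucrose towards the phloem in leaves, had 92.8, 84.2 and 109 in bud n-2, against 21.9, 22.6 and 17 in bud n, 4.66-fold higher (2.22 ± 0.21, limma adjusted p = 5.40e-07). SWEET4 had 65.9, 48.6 and 50.4 in bud n-2, against 22.8, 16.9 and 18.4 in bud n, 2.84-fold higher. SWEET7 was the reverse, with 28.7, 26.3 and 22.6 in bud n-2, against 56.6, 49.7 and 52.5 in bud n, 2.05-fold lower (-1.04 ± 0.18, limma adjusted p = 3.48e-04). None of the 3 overlapped. SWEET8 (0.91 ± 0.15) and SWEET1 (0.52 ± 0.11) were higher and SWEET10 lower (-0.54 ± 0.15, 5 of 6). Of 10 tested genes of starch and vacuolar sugar 3 were higher. TMT2, a sugar importer of the vacuole, had 158, 166 and 191 in bud n-2, against 94.9, 117 and 110.2 in bud n (0.68 ± 0.10), and the sucrose phosphate synthase gene ATSPS4F, dim in bud n, was at least 2.41-fold higher. The nitrate and peptide transporter family gave 3 higher and 1 lower of 4 tested, with AT1G68570 (NPF3.1) at 287, 278 and 305 in bud n-2, against 167, 162 and 161 in bud n (0.83 ± 0.08) and AT3G21670 (NPF6.4) at 322, 309.5 and 365 in bud n-2, against 133, 192 and 207 in bud n (0.93 ± 0.13). AT3G25260 (NPF4.1) was lower (-0.86 ± 0.21), and AT2G26690 (NPF6.2) was higher with 2 of 6 arrays left out.

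**Figure D3:**
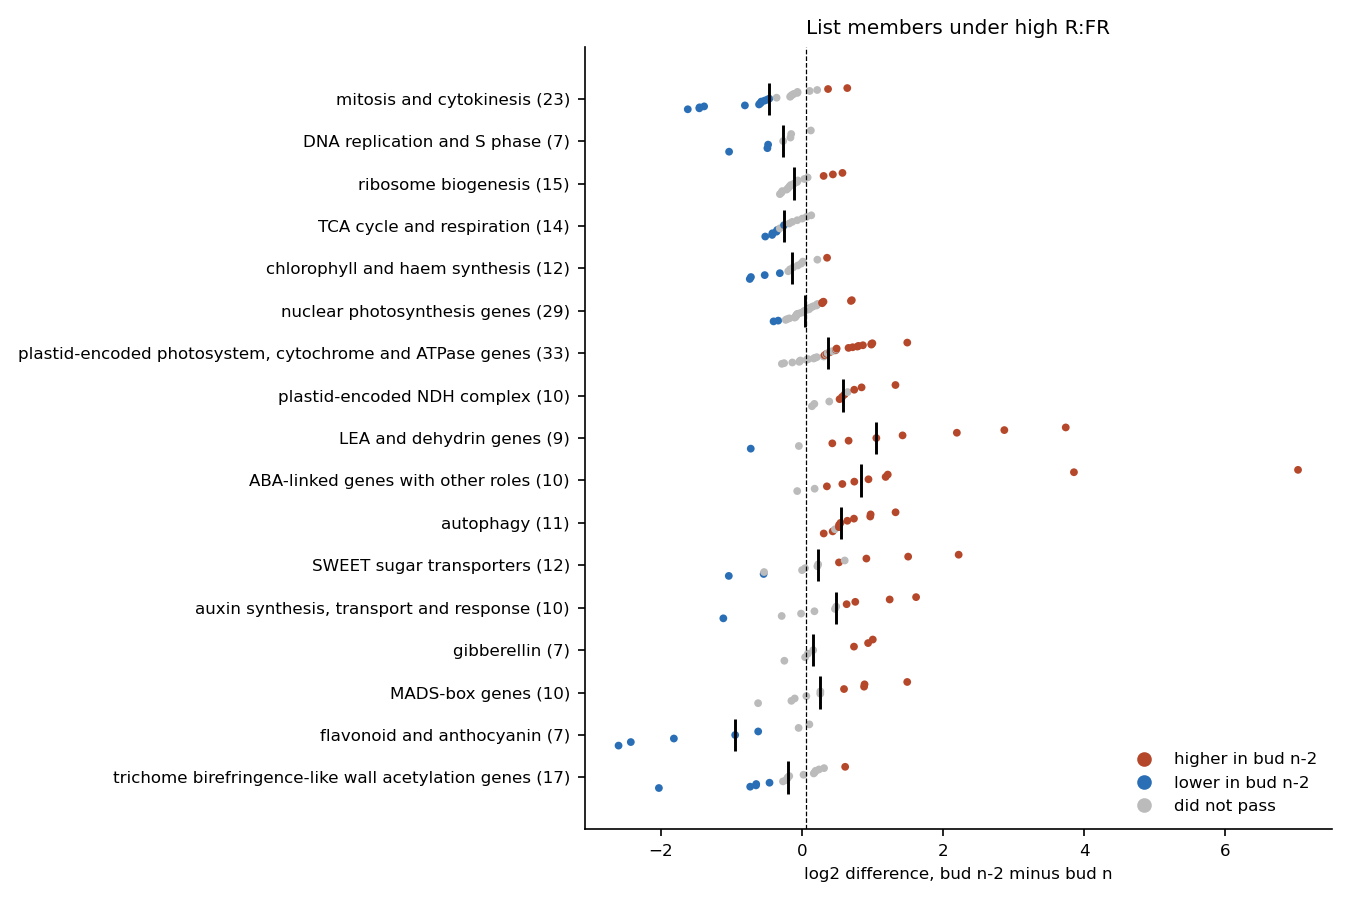
Log2 differences of bud n-2 minus bud n for the tested members of 17 gene lists, whose numbers stand in brackets. Red points were higher in bud n-2, blue points lower and grey points did not pass. Black ticks are list medians and the dashed line is the median of all named genes tested. Points of autophagy and of LEA genes lie mostly right of the line, and points of mitosis and of flavonoid genes mostly left of it.

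Chloroplast genes, transcribed inside the organelle, are given by complex, and differences between complexes were not tested. Of 33 tested plastid genes for photosystems, cytochrome b6f, ATP synthase and Rubisco, 14 were higher in bud n-2 and none lower, with a median of 0.36. By complex, 9 of 15 photosystem II genes were higher (median 0.40), 2 of 5 photosystem I genes (0.47), 2 of 6 cytochrome genes (0.35) and 1 of 6 ATP synthase genes (0.27). The photosystem II gene psbB had 292, 136 and 226 in bud n-2, against 103, 116 and 125 in bud n (0.86 ± 0.20, limma adjusted p = 0.00266). psbA, for the reaction centre protein D1, had 213, 135 and 186 in bud n-2, against 122, 104 and 108 in bud n (0.66 ± 0.15). petD of the cytochrome complex had 153, 86.7 and 119.5 in bud n-2, against 72.6, 50.1 and 54.7 in bud n (1.00 ± 0.21). In each of the 3 genes replicate 2 of bud n-2 was the lowest bud n-2 array, close to the bud n arrays. psaA was dim in bud n and at least 1.89-fold higher. rbcL, for the large subunit of Rubisco, did not pass, with 282, 138 and 197 in bud n-2, against 237, 234 and 250.2 in bud n.

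Genes of the chloroplast NDH complex, which returns electrons to the plastoquinone pool, were higher in both genomes. Of 10 tested plastid ndh genes 6 were higher and none lower, with a median of 0.59. ndhH had 74.2, 46.2 and 116 in bud n-2, against 25, 29.9 and 33.8 in bud n, 2.5-fold higher with no overlap (1.32 ± 0.28, limma adjusted p = 0.00148). ndhA had 1020, 934 and 829 in bud n-2, against 442, 632 and 608 in bud n (0.74 ± 0.14), and ndhD had 347, 289 and 243 in bud n-2, against 171, 208 and 197 in bud n (0.60 ± 0.13). The calls on ndhG (5 of 6), ndhJ and ndhK (3 of 6 each) depended more on single arrays. The nuclear genes NdhS (0.71 ± 0.12) and NdhL (0.69 ± 0.13) were higher, with NdhS at 269.8, 281 and 316 in bud n-2, against 146, 201 and 188 in bud n, and NdhN was higher by 0.29 (4 of 6). Genes of plastid gene expression mostly did not pass. None of 4 plastid RNA polymerase genes passed (-0.30 to 0.61), nor did 13 of 15 plastid ribosomal protein genes. Of the other 2, rps14 had 320.5, 199 and 308 in bud n-2, against 138, 127 and 114 in bud n (1.1 ± 0.17, limma adjusted p = 7.36e-05), and rpl22 was lower (-0.32 ± 0.09, 5 of 6).

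Plastid transcripts lack the long poly(A) tails at which the labelling starts. The probe sets for the 25S ribosomal RNA read 2337, 2155 and 2123 in bud n-2, against 1729, 1676 and 1707 in bud n. This reading was higher in bud n-2, as psbB, psbA and petD were. Within bud n-2, replicate 1 was the highest array for this reading and for those genes. The lowest was replicate 3 for this reading and replicate 2 for those genes. The signals of ndhA and ndhD followed the array order of this reading, and those of ndhH did not. The part of this reading in the result was not tested. The log2 ratio of 3' to 5' actin probes was 4.17, 4.03 and 4.27 in bud n-2 and 4.27, 4.32 and 4.35 in bud n. Without replicate 1 of bud n-2, 8 of the 33 photosynthesis genes were higher and 2 lower, and 3 of the 10 ndh genes were higher. Without replicate 1 of bud n, 9 of the 33 were higher and 1 lower, and with median centring 9 were higher and 2 lower.

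**Figure D4:**
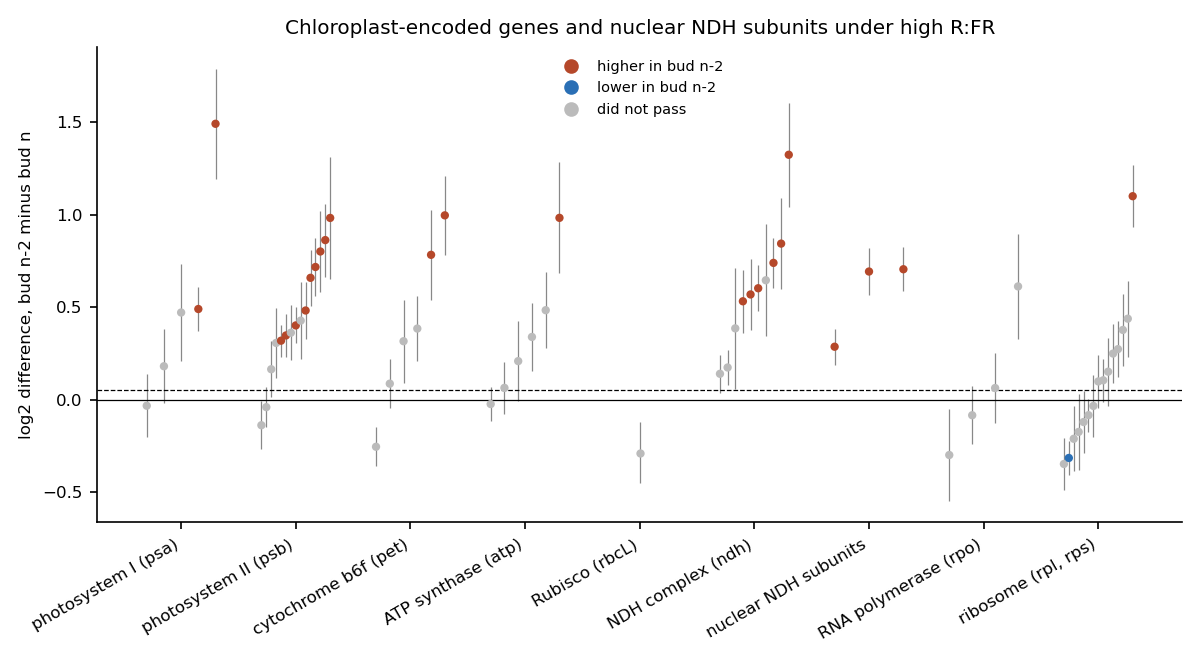
Log2 differences of bud n-2 minus bud n for chloroplast-encoded genes, grouped by complex along the x axis, with nuclear NDH subunits beside the plastid ones. Points are genes, bars are standard errors from limma, and the dashed line is the median of all named genes tested (0.05). Photosystem and NDH genes lie mostly above the line, while RNA polymerase and ribosomal protein genes lie on both sides of it.

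Nuclear genes of photosynthesis showed no such pattern. Of 29 tested, 5 were higher and 2 lower, with a median of 0.04 that became -0.13 after median centring, where 2 were higher and 9 lower. Beside the 3 NDH genes, LHCB4.2, a light-harvesting protein of photosystem II (0.30 ± 0.09, 4 of 6), and PIFI (0.29 ± 0.09, 3 of 6) were higher. LPA2, an assembly factor of photosystem II (-0.34 ± 0.09), and the thylakoid curvature gene AT4G38100 (-0.40 ± 0.12, 4 of 6) were lower. Without replicate 1 of bud n only 2 were higher.

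Of 12 tested genes of chlorophyll and haem synthesis, 4 were lower and 1 higher in bud n-2 and 7 did not pass, with a median of -0.15. HEMB1, which joins aminolevulinic acid into porphobilinogen, had 430.4, 428 and 442 in bud n-2, against 736, 706 and 731 in bud n, with a narrow spread in both positions and no overlap (-0.74 ± 0.07, limma adjusted p = 9.69e-07). GSA1, which makes aminolevulinic acid, had 232, 204 and 238 in bud n-2, against 349, 383 and 380.3 in bud n (-0.72 ± 0.09), and the decarboxylase HEME2 had 341, 413 and 339 in bud n-2, against 521, 503 and 547 in bud n (-0.53 ± 0.11). HEME1 was lower in 3 of 6 fits with an array left out (-0.32 ± 0.10), and LIL3:2, which holds late enzymes of the pathway at the membrane, was higher (0.35 ± 0.11, 5 of 6). Genes of the TCA cycle and of mitochondrial respiration pointed the same way with small differences. Of 14 tested, 6 were lower and none higher, with a median of -0.26. CYTC-1, a cytochrome c, had 1142, 1436 and 1120 in bud n-2, against 1782, 1732 and 1759 in bud n (-0.52 ± 0.11, limma adjusted p = 0.00103). The succinate dehydrogenase subunits SDH2-1 (-0.42 ± 0.11), SDH1-1 (-0.36 ± 0.09) and SDH2-2 (-0.35 ± 0.10, 5 of 6) and the processing peptidase MPPBETA (-0.42 ± 0.10) were lower, and cICDH was lower with 1 of 6 arrays left out. Median centring raised the lower genes to 10 of 14 here and 7 of 12 in tetrapyrrole synthesis.

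Genes of anthocyanins and flavonols were lower in bud n-2. Of 7 tested, 5 were lower and none higher, with a median of -0.95. DFR, which commits the pathway to anthocyanins, had 13.3, 10.8 and 12 in bud n-2, against 113, 66 and 51.6 in bud n. It was dim in bud n-2, so the signal was at least 3.25-fold lower (limma adjusted p = 1.50e-06). The anthocyanin-decorating enzymes UF3GT and AT5MAT were dim in bud n-2 too, with bounds of 3.21-fold and 2.15-fold lower. UGT78D1, which adds rhamnose to flavonols, had 262, 312 and 282 in bud n-2, against 564, 570.1 and 513 in bud n, 1.93-fold lower with no overlap (-0.95 ± 0.11, limma adjusted p = 3.48e-06). UGT84A1, which acts on hydroxycinnamic acids, was lower (-0.62 ± 0.17), and UGT78D2, which glucosylates flavonoids, did not pass (0.10 ± 0.13). With the filter at the 60th percentile 2 were lower, since the dim genes were then not tested. Over all 15 tested UGT genes 6 were higher and 2 lower, and the largest higher difference among them was in UGT85A5 (0.99 ± 0.26).

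Redox and defence genes differed in both directions, with the widest differences on the lower side. Of 24 tested redox genes 5 were higher and 5 lower. GSTU20, a glutathione transferase, had 353, 478 and 324 in bud n-2, against 1204, 1109 and 1027 in bud n, 2.93-fold lower (-1.55 ± 0.13, limma adjusted p = 1.17e-07). MSRB9, a methionine sulfoxide reductase, was dim in bud n-2 and at least 2.74-fold lower. GRXC1, a glutaredoxin, was 2.1-fold higher, with 81.6, 103 and 75.8 in bud n-2, against 40, 43.3 and 40 in bud n, and GSTU16 was higher by 1.7-fold. Without replicate 1 of bud n, 2 redox genes were higher. Of 5 tested defensins and thionins 3 were lower and 1 higher. THI2.1, the thionin induced by jasmonate, had 70.2, 111 and 50.4 in bud n-2, against 621, 667 and 433 in bud n, 7.71-fold lower with no overlap (-2.95 ± 0.21, limma adjusted p = 2.80e-08). THI2.2 (-0.75 ± 0.12) and LCR68 (-0.64 ± 0.12) were lower, and LCR66 was higher (0.79 ± 0.20). JAL23, a jacalin-like lectin, had 124, 197 and 75.4 in bud n-2, against 834, 843 and 762 in bud n, 6.63-fold lower. Of 6 tested genes of jasmonate and wounding 3 were higher and 2 lower, the lower ones being both THI2 genes. Among the higher ones was MYC3, a transcription factor that carries out jasmonate responses, with 120.4, 110.3 and 119.5 in bud n-2, against 78.7, 64.2 and 73.6 in bud n (0.70 ± 0.11, limma adjusted p = 1.17e-04). Its relative MYC4 was higher by 0.44 (2 of 6), and the zinc finger repressor STZ, the member with the largest fitted difference, was dim in bud n, so that its bound given above (1.21-fold) stands for it. UGT74B1, of glucosinolate synthesis, was 1.86-fold lower, and GTR2, which moves glucosinolates, 1.47-fold higher.

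Hormone genes differed by gene within each pathway. Of 10 tested auxin genes 4 were higher and 1 lower, with a median of 0.48. WES1, a GH3 enzyme that conjugates auxin to amino acids, had 427, 328 and 361 in bud n-2, against 110.0, 119 and 134 in bud n, 3.07-fold higher (1.62 ± 0.12, limma adjusted p = 3.58e-08). GH3.3, of the same family, had 79.4, 49.6 and 63.4 in bud n-2, against 150.5, 129 and 131 in bud n, 2.17-fold lower (-1.12 ± 0.18, limma adjusted p = 1.17e-04). Both were free of overlap, in opposite directions. ARL, counted in this list though described as an organ growth gene, had 61.7, 64.4 and 50.3 in bud n-2, against 19.3, 29.3 and 26.7 in bud n (1.24 ± 0.15). IAA18, an auxin response repressor (0.75 ± 0.12), and HAT2, an auxin-induced homeodomain factor (0.63 ± 0.11), were higher. GH3.17 did not pass, with 64.5, 40.9 and 69.9 in bud n-2, against 38.5, 37.9 and 47.9 in bud n. All 3 gibberellin receptor genes were higher. GID1B had 60.7, 46.6 and 69.1 in bud n-2, against 29, 26.1 and 32.1 in bud n (1.00 ± 0.16), GID1A had 137, 162 and 174 in bud n-2, against 68.8, 88.6 and 90.7 in bud n (0.94 ± 0.13), and GID1C, dim in bud n, was at least 1.35-fold higher. The other 4 of 7 tested gibberellin genes, SPY, SLY1 and SLY2 among them, did not pass. Of 4 cytokinin genes 2 were higher. ARR15, a response regulator that cytokinin induces and that dampens its signal, had 48.8, 77.9 and 97.7 in bud n-2, against 32.6, 31 and 30.6 in bud n (1.2 ± 0.28, limma adjusted p = 0.00343), with all bud n-2 arrays above bud n but far apart from each other. UGT76C1, which inactivates cytokinin, passed with 1 of 6 arrays left out (0.68 ± 0.24).

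Of 11 tested genes of organ polarity and leaf development 3 were lower and 1 higher in bud n-2. YAB3, of the lower leaf side, had 159.9, 115 and 164 in bud n-2, against 209, 202 and 222 in bud n, without overlap (-0.55 ± 0.12, limma adjusted p = 0.00213). PHV, of the upper leaf side (-0.45 ± 0.14, 2 of 6), and TCP15 (-0.34 ± 0.11, 3 of 6) were lower on less stable calls, and without replicate 3 of bud n-2 or replicate 1 of bud n only 1 of the list was lower. BPEp, which limits cell size in petals, was higher, with 64.7, 71.7 and 54.2 in bud n-2, against 34.2, 38.9 and 42.2 in bud n (0.72 ± 0.17). Of 5 tested meristem genes ULT1, a regulator of meristem size, alone passed, as lower (-0.37 ± 0.11, 4 of 6). MADS-box genes, the family of flowering and floral organ regulators, gave 4 higher and none lower of 10 tested. AGL42, a relative of the flowering gene SOC1, had 115, 104 and 93.6 in bud n-2, against 68.2, 68.3 and 70.1 in bud n (0.59 ± 0.11, limma adjusted p = 5.50e-04), and AGL18 had 30.6, 33 and 30.8 in bud n-2, against 21.6, 16.2 and 14.3 in bud n (0.88 ± 0.20). AGL71 and AT1G30260 were dim in bud n, with bounds of 1.23-fold and 1.5-fold. The place of AT1G30260 in this list rests on a synonym that the reference table also gives to another locus. AGL24 did not pass (0.26 ± 0.12). Of 16 anther, tapetum and pollen genes tested, 3 were higher and 1 lower, with a median of 0.03. The tapetum gene ATA27, dim in bud n, passed as higher on the deposited values but not with dim values raised.

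Of 6 tested clock genes 3 were higher. COR27, a cold-induced clock repressor, had 83.5, 64.5 and 73.6 in bud n-2, against 20.2, 15.5 and 18.8 in bud n, 4.06-fold higher with no overlap (2.02 ± 0.21, limma adjusted p = 1.38e-06). The clock component GI (0.45 ± 0.12, 5 of 6) and FIO1 (0.60 ± 0.21, 1 of 6) were higher by less, and without replicate 1 of bud n only 1 clock gene was higher. Genes of iron and zinc supply gave 5 higher and none lower of 10 tested. PYE, a regulator of iron shortage, had 49.2, 51.3 and 51 in bud n-2, against 25.9, 33.7 and 37 in bud n (0.66 ± 0.17), and bHLH104, which acts upstream of it, had 156, 157 and 141 in bud n-2, against 106, 101 and 103 in bud n (0.55 ± 0.12). The zinc sensor bZIP19 (0.33 ± 0.09) and the metal transporter MTP11 (0.50 ± 0.13) were higher. After median centring 2 of these genes were higher, and 3 with the 2 arrays of lowest weight left out. BZIP60, a factor of the unfolded protein response, was higher, with 166, 151 and 153 in bud n-2, against 86.7, 96.9 and 98.8 in bud n (0.73 ± 0.10, limma adjusted p = 1.99e-05), among 4 higher and 1 lower of 14 tested genes of folding in the endoplasmic reticulum. Without replicate 1 of bud n-2, 2 were higher.

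Genes with the largest differences mostly carried a locus name alone in the gene table used, and the lists above can miss such genes. Among those above the dim level on at least 1 array of each position, AT1G49500 had 566, 813 and 546 in bud n-2, against 43.8, 73.8 and 75.5 in bud n, 10.1-fold higher (3.33 ± 0.18, limma adjusted p = 2.09e-09). SIS had 194, 113 and 104 in bud n-2, against 12.6, 21.9 and 9.79 in bud n, 9.43-fold higher. AT5G16920 had 117, 120.2 and 150.3 in bud n-2, against 0.882, 26 and 19.7 in bud n, with a wide spread in bud n (4.06 ± 1.02). AT5G44580 (2.74 ± 0.30), AT2G15960 (2.39 ± 0.23), AT1G26800 (2.37 ± 0.34) and AT3G11930 (2.21 ± 0.14) came next, and AT4G28703, AT3G16220, AT1G80180 and AT1G32700 were higher by 2.06, 2.04, 2.04 and 1.99 on the log2 scale. On the lower side AT4G17470 had 40.7, 65.8 and 27.2 in bud n-2, against 341, 400.3 and 374 in bud n, 8.88-fold lower (-3.15 ± 0.30, limma adjusted p = 5.90e-07). AT4G28160 had 30.2, 20.9 and 31.4 in bud n-2, against 168, 156 and 182 in bud n, 6.21-fold lower. AT5G55180 had 314, 375 and 353 in bud n-2, against 1392, 1451 and 1304 in bud n, 3.99-fold lower. None of these 3 overlapped between positions. AT1G06100 (-2.12 ± 0.13), AT1G63100 (-1.9 ± 0.13), AT1G10980 (-1.82 ± 0.16), AT5G12110 (-1.78 ± 0.18) and AT1G31335 (-1.74 ± 0.10) were lower too, and AT3G02120, AT4G14330, AT2G42110, AT5G15510 and AT3G15550 had differences of -1.67 to -1.71.

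Other genes were dim in 1 position. AT1G47980 had 359, 671 and 663 in bud n-2, against 10.1, 6.51 and 7.05 in bud n, at least 29.1-fold higher in bud n-2 (limma adjusted p = 2.01e-07). AT1G02813 was at least 18.6-fold higher, with 287, 335 and 432 in bud n-2, against 5.05, 2.46 and 1.18 in bud n, and AT3G23770 at least 10.7-fold, with 113, 210.0 and 333 in bud n-2, against 3.83, 1.32 and 4.79 in bud n. No bud n array was above the dim level in these genes. AT3G02480, AT1G20150, AT2G05540 and AT1G76590 had bounds of 6.36-fold, 6.34-fold, 5.19-fold and 4.37-fold higher. In the other direction AT4G11190 had 10, 10.1 and 7.78 in bud n-2, against 137, 124 and 115 in bud n, at least 5.59-fold lower in bud n-2. AT4G14090, AT4G29270, AT1G31690 and AT4G03010 were at least 3.45-fold, 2.41-fold, 2.37-fold and 2.28-fold lower.

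The same positions under low R:FR were set beside these values. Their arrays are none of the 6 compared above, though both comparisons use the estimate of the spread from all 12. There 7388 of 14295 probe sets passed, 51.7%. Of 23 mitosis genes 14 were lower and 3 higher under low R:FR (median -0.46), of 11 autophagy genes 10 were higher (0.64), of 9 LEA genes 6 were higher and 1 lower (1.01), of 10 ABA-linked genes 8 were higher (0.83) and of 7 flavonoid genes 5 were lower (-1.48). Plastid photosynthesis genes gave 21 higher of 33 (0.57) and plastid ndh genes 9 of 10 (0.89). Of 15 ribosome biogenesis genes, 3 were higher and none lower under high R:FR, against 3 higher and 10 lower under low R:FR. Of 18 breakdown genes, 5 were higher and 1 lower under high R:FR, against 12 higher and 2 lower under low R:FR. Whether such counts differ between the lights was tested gene by gene only. None of the 15 ribosome biogenesis genes and 1 of the 18 breakdown genes passed that test, so the counts show no difference between lights by themselves.

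That test, of the position difference under high R:FR minus that under low R:FR, was passed by 147 probe sets, 1.03%, of which 98 were positive and 49 negative. With limma without a trend in the prior variance none passed, against 2038 at an unadjusted p under 0.05. Leaving out the high R:FR array of bud n with replicate number 3 left 2, and other single arrays left 4 to 264. No gene of the mitosis, LEA, ABA-linked, autophagy, flavonoid and plastid photosynthesis lists was among the 147. At a share of 1.03%, lists of this size would hold few such genes in any case. Their absence therefore does not show equal position differences under both lights. AT1G21000 had 143, 134 and 122 in bud n-2, against 31.5, 33.1 and 37.8 in bud n under high R:FR, and 268, 325 and 372 in bud n-2, against 33.3, 34.1 and 29.3 in bud n under low R:FR. Its difference was positive under both lights and smaller under high R:FR (-1.35 ± 0.18, limma adjusted p = 0.00614). AT4G14930 had 342, 281 and 299 in bud n-2, against 146, 178 and 172 in bud n under high R:FR, and 663, 737 and 885 in bud n-2, against 181, 174 and 183 in bud n under low R:FR (-1.18 ± 0.16, limma adjusted p = 0.00614). Both passed with each of 12 arrays left out. AT4G04940 had 90.3, 101 and 82.4 in bud n-2, against 117, 84.9 and 78.9 in bud n under high R:FR, where the positions overlapped, and 49.6, 55 and 58.1 in bud n-2, against 119.8, 121 and 128 in bud n under low R:FR (1.16 ± 0.19, limma adjusted p = 0.0220, 9 of 12).

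Among genes named by a symbol the calls on this difference were less stable. ARR15 had 7.01, 15.3 and 15.8 in bud n-2, against 18.9, 21.5 and 18.4 in bud n under low R:FR, where bud n-2 was dim. On the values as deposited its difference between the lights passed (1.91 ± 0.40, limma adjusted p = 0.0338, 3 of 12). With dim values raised its position difference under low R:FR was 0.21 in place of -0.71, and the difference between the lights did not pass (0.99 ± 0.26, limma adjusted p = 0.0694). ARL had 214, 216 and 249.7 in bud n-2, against 46.3, 56.1 and 47.6 in bud n under low R:FR, a larger difference than under high R:FR (-0.94 ± 0.22, limma adjusted p = 0.0458, 1 of 12). GH3.17 (-1.16 ± 0.25, 4 of 12) and LCR66 (-1.42 ± 0.28, 5 of 12) were also less positive under high R:FR. The methionine sulfoxide reductase MSRB5 was lower in bud n-2 under both lights, and less so under high R:FR (1.5 ± 0.33, 3 of 12). Its bud n-2 arrays under low R:FR were all dim, and with dim values raised the difference between the lights did not pass (1.05 ± 0.30, limma adjusted p = 0.0895).

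**Figure D5:**
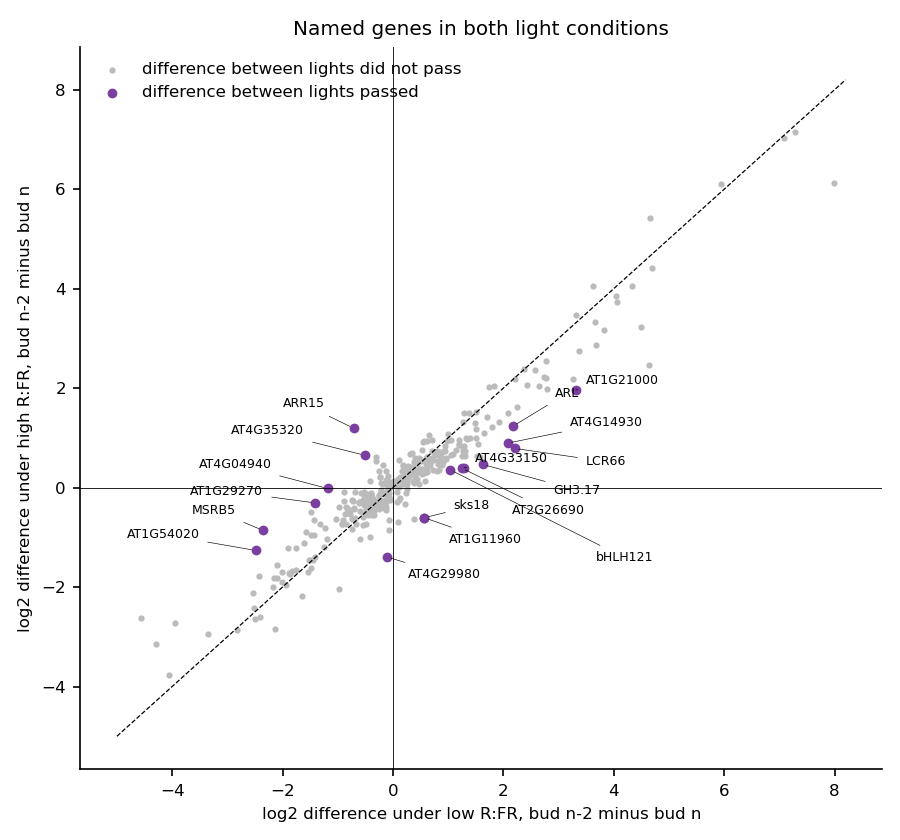
Log2 differences of bud n-2 minus bud n for the named genes, under low R:FR on the x axis and under high R:FR on the y axis, with the line of equal values dashed. Purple points are genes whose difference between the lights passed, among which LCR66 lies farthest below the line (-1.42). ARR15 and MSRB5, above the line, were dim under low R:FR in bud n-2, so their places on the x axis are not exact.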

How the data were processed

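Bud RNA of 12 single-colour Affymetrix ATH1 arrays was analysed, in 4 groups of 3 from the labels. The authors computed and deposited linear intensity values with MAS5 and GCOS, per the submitters' processing notes (versions not given in the sources used here). Of 22810 deposited probe sets, 64 controls stayed out of tests. Every deposited intensity was taken to log2 with no offset. Probe sets above the 40th percentile of their own array on at least 3 of 12 arrays were tested, which were 14295 of 22746.

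Group means of the 12 arrays were estimated by limma (3.58.1, under R 4.3.3). Variances were moderated with a mean-dependent prior (eBayes), on 8 residual and 9.18 prior degrees of freedom. Benjamini-Hochberg adjustment covered every probe set that was tested, at a threshold of 0.05. Known changes in simulated data served to test the code. With 3 arrays against 3, an exact permutation test cannot go below p = 0.1, so none was used. Tables and plots used Python 3.11.15, pandas 2.3.3, numpy 2.4.6 and matplotlib 3.10.9.

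Gene names come from GEO's platform annotation, brought up to date with RefSeq's TAIR10.1 gene table. The annotation pairs 13513 probe sets with a single gene and 503 with several, and 8794 are not in it and stay unnamed. Of the single-gene probe sets 13436 matched the table. Where a gene had more than 1 probe set, the brightest was used. Named genes are the 15 largest differences in each direction without overlap, the 8 largest bounds in each direction, for each list the 6 members of lowest p at most, with its lowest and highest, the 6 largest differences between lights in each direction, and genes followed whatever their value. The members and the lists were chosen with earlier results of these data known. List members whose reference name shows another function were removed after values were seen, so the lists are no independent support.

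The fit was repeated after quantile normalization or median centring, with 32 added to each signal, with dim values raised, without the filter or with it at the 60th percentile, without the trend, with array weights, with the replicate number as a block, on the compared arrays only, at a 2-fold threshold, and without each array in turn. Centring over the tested probe sets, and leaving out together the 2 arrays of lowest weight (0.378 for replicate 2 of bud n-2 and 0.454 for replicate 1 of bud n), were chosen after seeing the data. Correlations between replicates were 0.977 to 0.988, and no pair held identical values. Results on 1 gene list are not reported here.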

Additional observations from a re-analysis of the deposited data

Results flagged for a closer look

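The position difference under high R:FR differed from that under low R:FR for 147 probe sets by limma's interaction contrast, and 17 genes named here are among them. Values below are the difference under high R:FR minus that under low R:FR on the log2 scale. No outlier test was run on the groups of 3.

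Positive values, a difference shifted towards bud n-2 by high R:FR, were found for ARR15 (1.91), MSRB5 (1.5), AT1G54020 (1.22), AT4G04940 (1.16), AT4G35320 (1.16) and AT1G29270 (1.1). AT4G35320 had position differences of opposite sign, 0.65 with high R:FR and -0.51 with low R:FR. ARR15 and MSRB5 were dim under low R:FR in bud n-2, and with dim values raised their differences between the lights were 0.99 and 1.05 and did not pass (limma adjusted p = 0.0694 and 0.0895). The sign of ARR15 under low R:FR then turned, to 0.21 in place of -0.71. MSRB5 and AT1G54020 were lower in bud n-2 under both lights.

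Negative values were found for LCR66 (-1.42), AT1G21000 (-1.35), AT4G29980 (-1.29), AT4G14930 (-1.18), sks18 (-1.18), AT1G11960 (-1.17), GH3.17 (-1.16), ARL (-0.94), AT4G33150, the lysine-degrading enzyme (-0.90), AT2G26690, of the nitrate and peptide transporter family (-0.85), and the iron-linked factor bHLH121 (-0.68). sks18 and AT1G11960 both had position differences of -0.61 with high R:FR, against 0.57 with low R:FR. AT4G29980 had -1.39 ± 0.18 with high R:FR, against -0.11 with low R:FR.

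AT1G21000 and AT4G14930 passed in 22 of 23 alternatives, all but the fit with no trend in the prior variance, and AT4G04940 in 19 of 23. The other 14 genes passed in 7 to 15 of 22 or 23, and with 1 to 5 of 12 arrays left out.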

How the results depend on the processing

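The counts of 2890 higher and 2044 lower probe sets stayed within 1.5 times of these values under every alternative run except 2. Median centring gave 1744 higher and 4046 lower, and a 2-fold threshold 604 and 234, since it asks for more. Scaling turned the split, with 58.6% of calls higher as deposited, 49.3% after quantile normalization, 45.0% after centring over tested probe sets and 30.1% after median centring. Leaving out single arrays gave 2320 to 2761 higher and 1598 to 1952 lower, and under low R:FR 6376 to 6765 calls, against 7388, and 1433 at 2-fold. The 147 differences between lights became 232 after quantile normalization, 230 with 32 added, 90 without the filter, 0 with limma without a trend (2038 at an unadjusted p under 0.05), 444 with array weights, 257 without the 2 low-weight arrays, 35 at 2-fold, and 2 to 264 with an array left out. The cause was not tested. Of 239 named genes that passed, 169 passed in every alternative that tested them and 185 with each of 6 arrays left out. 1 reversed: TBL41, at 0.13 with dim values raised. Bud n-2 was dim and was raised to its 40th percentile, which lies above that of bud n. The raising set this sign, so it is no evidence of a higher signal in bud n-2. Replicate number as a block gave 2816 higher, 1976 lower, 105 differences between lights and 7212 calls under low R:FR, all within 1.5 times of the fit without it. Deviations of same-numbered arrays correlated at 0.029, 0.024 and 0.043 under high R:FR, all under 0.1, so the numbers were not taken to pair arrays, though each array there correlated best with its own number. Median centring turned small positive list medians negative, such as those of breakdown (0.16), gibberellin (0.16) and nuclear photosynthesis genes (0.04). Small differences at low signal are limited by the spread between arrays, and dim genes by the 40th percentile.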

Other observations

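Other gene families are to be read against the 32.9% of all named genes that passed. Of 15 tested bZIP factors 4 were higher and none lower, with bZIP44 at 179, 177 and 186 in bud n-2, against 142, 114 and 135 in bud n (0.48 ± 0.11, limma adjusted p = 0.00381). Serine carboxypeptidase-like genes split evenly, 3 higher and 3 lower of 13, with SCPL49 at 620.3, 536 and 592 in bud n-2, against 329, 375 and 367 in bud n (0.71 ± 0.09) and scpl26 at 272, 262 and 308 in bud n-2, against 363, 399.9 and 374 in bud n (-0.43 ± 0.09). Among 6 tested tetraspanins, membrane proteins of cell-cell contact, TET3 had 138, 160.2 and 166 in bud n-2, against 65.1, 86.9 and 88.4 in bud n, 1.94-fold higher, and TET8 was higher by 1.49-fold. Of 9 tested beta-glucosidases 2 were higher and 3 lower, 55.6%, but several of these calls were unstable. BGLU40 (-0.32) and BGLU16 (-0.34) were lower and passed with 2 of 6 arrays left out. The higher gene ATA27 was dim in bud n and did not pass with dim values raised. BGLU45, which acts on lignin precursors, had 39.1, 53.1 and 43.6 in bud n-2, against 16.3, 21.1 and 11.4 in bud n, 2.85-fold higher, and BGLU15 had 23.5, 14.8 and 24.5 in bud n-2, against 42, 47.3 and 54.5 in bud n, 2.33-fold lower. Of 14 genes of organelle RNA editing and pentatricopeptide proteins 2 were lower, PPR596 at 316, 317 and 291 in bud n-2, against 459, 383 and 375 in bud n (-0.39 ± 0.10) and CRR22 (-0.83 ± 0.28, passing with 3 of the 6 arrays left out in turn).

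Of 12 tested IQD scaffold genes 1 was lower, iqd33, dim in bud n-2 and at least 1.5-fold lower. Of 10 TRM genes 1 was higher, TRM26 (0.62 ± 0.18), and of 7 CYP71B genes CYP71B34 was higher, with 75.8, 92.5 and 75 in bud n-2, against 35.9, 45.9 and 44.5 in bud n (0.95 ± 0.14, limma adjusted p = 4.69e-05). None of 3 stomatal lineage genes passed, SPCH, FMA and STOMAGEN, with limma adjusted p from 0.308 to 0.940. Of 5 trichome and root hair patterning genes 1 was higher and 2 lower, TRY in 1 of 6 fits with an array left out, GIS in 2 and GEM in 3.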
